A study of Mus musculus with 8 samples.

Results

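Ednrb, Pdpn, Nxpe5 and Lix1 are 4 genes of the 55376 counted in macrophages grown from mouse bone marrow, and they were chosen by their strong rise with interleukin-6 (IL-6) in both genotypes of the study. All 4 passed the filter on low counts and are among the 13721 genes tested. Because the rise with IL-6 chose them, its size is given below as a description without a test. The tests are of differences between the genotypes and of whether the size of the rise differed between them. The choice required a rise in both genotypes, so no gene that lost its response in 1 of them could be among the 4.

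The study asked about reduced DNMT3A, a DNA methyltransferase, in blood cells and about inflammation, and its 8 libraries fall into 4 groups of 2. WT control and WT IL-6 macrophages came from wild-type mice, and HET control and HET IL-6 macrophages from mice with the genotype label DNMT3A-HET. The mice were male and 13 weeks old, with 3 of each genotype, and the labels used here state neither the allele nor which mouse gave which library. Whole marrow of all groups was grown in M-CSF at 50 ng/mL, the IL-6 groups received IL-6 at 10 ng/mL from day 6 for 2 days, and RNA of all groups was collected on day 8. Controls received no IL-6.

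IL-6 binds its receptor together with the shared subunit gp130, and the JAK kinases bound there phosphorylate STAT3, which enters the nucleus and binds DNA. Ednrb encodes the endothelin B receptor, a G protein-coupled receptor for the vasoactive endothelin peptides, best known from endothelium, melanocytes and the enteric nervous system. Pdpn encodes podoplanin, a mucin-type membrane glycoprotein that binds the platelet receptor CLEC-2 and is widely used as a marker of lymphatic endothelium and stromal cells. Nxpe5 belongs to the neurexophilin and PC-esterase domain family. Lix1, limb and CNS expressed 1, has 1 close relative in the lists used here, Lix1l.

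All 4 are protein-coding genes in the mm10 annotation (GENCODE M21), and none of their exon bases is shared with another annotated gene on either strand. Ednrb (ENSMUSG00000022122.15) lies on the minus strand at chr14:103814625-103844402 with 3 transcripts and 4266 exon bases. Pdpn (ENSMUSG00000028583.14) lies on the minus strand at chr4:143267431-143299564 with 2 transcripts and 1817 exon bases. Nxpe5 (ENSMUSG00000047592.17) lies on the plus strand at chr5:138225898-138253363 with 5 transcripts and 4473 exon bases. Lix1 (ENSMUSG00000047786.12) lies on the plus strand at chr17:17402672-17459387 with 2 transcripts and 3434 exon bases. The 4 genes are thus on 4 different chromosomes.

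The sequences upstream of the starts are shown because the 4 genes moved together with a cytokine that acts through STAT3. They are from RefSeq (GRCm38.p6), were matched by symbol for 4 of 4 genes, and read 5′ to 3′ on the strand of the gene. Each holds at most 250 bases before the RefSeq start, without bases inside an exon of the gene. The windows are chr14:103843702-103843951 (minus) for Ednrb, chr4:143299565-143299814 (minus) for Pdpn, chr5:138225654-138225897 (plus) for Nxpe5 and chr17:17402436-17402671 (plus) for Lix1. Capitals mark the only motif match found.
Ednrb: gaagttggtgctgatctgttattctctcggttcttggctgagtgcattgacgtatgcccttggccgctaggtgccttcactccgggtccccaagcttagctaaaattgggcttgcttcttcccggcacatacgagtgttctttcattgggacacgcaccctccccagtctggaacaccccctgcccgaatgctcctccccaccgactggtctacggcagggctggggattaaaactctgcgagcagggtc
Pdpn: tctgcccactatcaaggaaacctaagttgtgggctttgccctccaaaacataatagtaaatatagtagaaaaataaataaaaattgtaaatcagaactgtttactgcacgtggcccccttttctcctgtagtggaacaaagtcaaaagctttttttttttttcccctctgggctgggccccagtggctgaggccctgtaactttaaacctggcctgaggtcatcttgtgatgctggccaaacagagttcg
Nxpe5: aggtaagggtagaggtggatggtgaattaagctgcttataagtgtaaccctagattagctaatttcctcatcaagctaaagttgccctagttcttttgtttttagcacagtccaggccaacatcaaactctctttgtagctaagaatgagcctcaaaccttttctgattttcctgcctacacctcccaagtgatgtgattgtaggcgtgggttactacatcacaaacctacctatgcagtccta
Lix1: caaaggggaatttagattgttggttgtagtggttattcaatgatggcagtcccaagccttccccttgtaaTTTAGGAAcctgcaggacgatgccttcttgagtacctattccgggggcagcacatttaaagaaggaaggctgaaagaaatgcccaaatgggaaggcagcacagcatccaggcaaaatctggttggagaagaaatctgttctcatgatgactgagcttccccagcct
The Ednrb window lies inside the annotated gene, since a longer transcript starts upstream of it, but in no Ednrb exon. GC content was 56.8% for Ednrb, 43.2% for Pdpn, 42.2% for Nxpe5 and 47% for Lix1.

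Both strands of the windows from 250 bases before to 50 bases after the start were searched for the STAT site TTCNNNGAA and the C/EBP-type site TTNNGNAA, where N is any base. The STAT letters were in none of the 4 windows, and they occur in 8.3% of the 32851 mouse promoter windows of the same length and in 6.77% of those of tested genes. The C/EBP-type letters were found once, in Lix1, as TTTAGGAA on the plus strand from 180 to 173 bases before the start (chr17:17402506-17402513). They occur in 40.7% of all such windows and in 32.4% of those of tested genes. A match is a match of letters and not a bound site, and the search covers no sequence outside these windows.

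Total counts ran from 18926641 to 50137897 per library, and the highest apart from HET IL-6 number 2 was 24881197. A count of 3 corresponded to 0.0608 to 0.161 CPM, the count scaled to library size by TMM. The 2 libraries of every group differed by more than sampling noise. Numbers 1 and 2 of each group had, for Dnmt3a itself, 275.2 and 243.5 CPM (WT control), 174.5 and 183.2 (WT IL-6), 166.3 and 248.3 (HET control), and 140.1 and 212.7 (HET IL-6). The HET libraries numbered 2 were thus not below their WT counterparts, and no difference of Dnmt3a between the genotypes was called in control (log2 fold change -0.32, edgeR adjusted p = 0.506) or in IL-6 (-0.02, adjusted p = 0.972). HET below therefore means the libraries so labelled. Summed markers of macrophages (8 genes) came to 11900 to 12500 CPM (WT control), 13170 to 14140 (WT IL-6), 12790 to 12940 (HET control) and 11910 to 12200 (HET IL-6).

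Ednrb was present without IL-6 and rose in both genotypes, more steeply in HET. It was at 40.7 and 36.2 CPM in the WT controls, against 212.1 and 223.6 CPM with IL-6. The HET libraries held 24.5 and 32.05 CPM as controls and 289.5 and 322.0 CPM with IL-6. No libraries of the 4 groups overlapped, and both HET groups lay outside the WT range, below it in control and above it with IL-6. The fitted log2 fold change with IL-6 was 2.50 ± 0.11 in WT (± here gives the standard error of the fit), a 5.66-fold rise. In HET it was 3.43 ± 0.12, a 10.8-fold rise. The lowest IL-6 library was 5.21 times the highest control library in WT and 9.03 times in HET.

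Pdpn was close to the detection floor without IL-6 and rose by the largest factor of the 4 genes in each genotype. Its raw counts were 13 and 11 in WT control, 5 and 19 in HET control, 172 and 106 in WT IL-6, and 235 and 298 in HET IL-6. In WT these were 0.518 and 0.485 CPM without IL-6 and 7.11 and 5.68 CPM with it. In HET they were 0.219 and 0.795 CPM without and 9.74 and 6.04 CPM with it. Every IL-6 library lay above every control library, while the genotypes overlapped in both treatments. The 95% Poisson intervals of the HET control libraries were 0.071 to 0.51 CPM for number 1 and 0.479 to 1.24 CPM for number 2 and cover counting error only. The log2 fold change was 3.67 ± 0.38 in WT and 3.91 ± 0.37 in HET, which are 12.7-fold and 15.0-fold rises. The HET value was 3.28 without HET control number 1 and 5.12 without HET control number 2, so its size rests on those few reads.

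Nxpe5 held the most counts of the 4 genes in every library. The WT controls held 88.3 and 82.1 CPM, against 470.8 and 535.4 CPM with IL-6. In HET the levels were 53.9 and 70.4 CPM without and 512.5 and 529.1 CPM with IL-6. The HET control libraries were the lowest of the 8, and the HET IL-6 libraries lay within the range of the WT IL-6 libraries. The log2 fold change was 2.56 ± 0.12 in WT and 3.07 ± 0.12 in HET, which are 5.90-fold and 8.38-fold rises.

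Lix1 was low without IL-6. The WT controls held 2.07 and 2.12 CPM (52 and 48 reads), against 12.5 and 13.5 CPM with IL-6. The HET controls held 1.71 and 1.80 CPM (39 and 43 reads), against 18.2 and 14.3 CPM with IL-6. Its HET libraries lay below the WT libraries without IL-6 and above them with it, by small steps. Neither genotype difference was called (edgeR adjusted p = 0.55 in control and 0.112 with IL-6), so none is read from this order. The 95% Poisson intervals of the controls overlapped, at 1.21 to 2.33 and 1.30 to 2.42 CPM in HET. In WT they were 1.55 to 2.72 and 1.56 to 2.81 CPM. The log2 fold change was 2.63 ± 0.17 in WT and 3.20 ± 0.17 in HET, which are 6.18-fold and 9.16-fold rises.

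**Figure D1:**
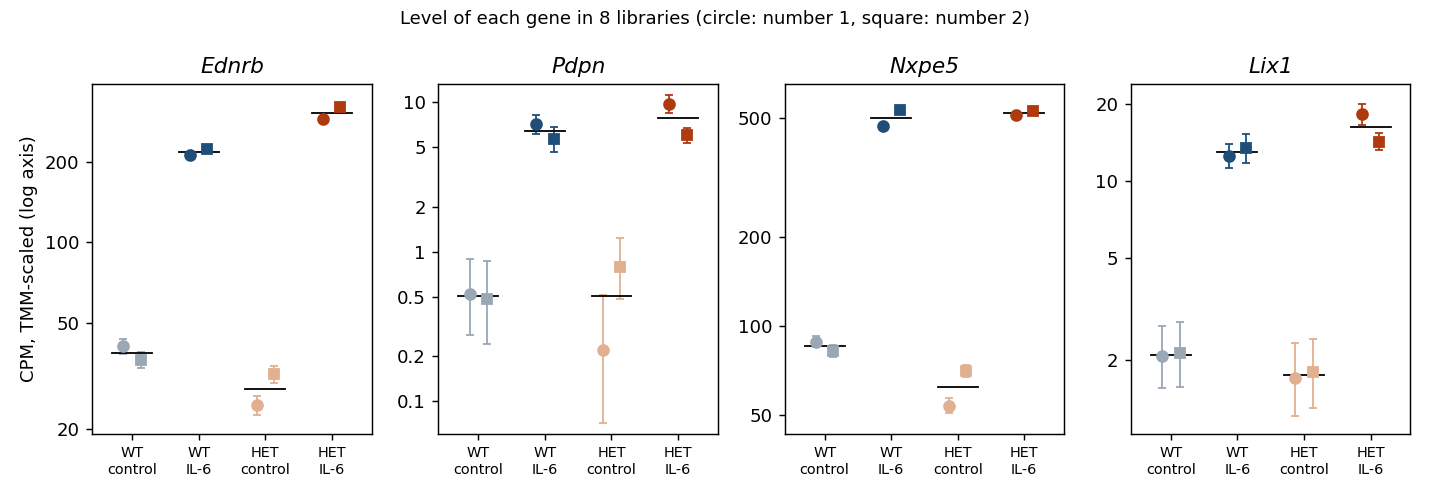
Level of each gene in CPM (log axis, a separate scale for each gene) in the 2 libraries of each group, with number 1 as a circle and number 2 as a square, 95% Poisson intervals as bars and the group mean as a line. In every panel the IL-6 libraries of a genotype lie above its control libraries; HET control number 1 is the lowest library for all 4 genes.

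Averaged over the genotypes, the log2 fold change with IL-6 was 3.79 ± 0.27 for Pdpn, 2.97 ± 0.08 for Ednrb, 2.91 ± 0.12 for Lix1 and 2.81 ± 0.08 for Nxpe5. Of the tested genes, 23.6% were called for this comparison (3243 genes, edgeR adjusted p under 0.05). Of these calls 45.8% were rises, and 34.8% were when libraries were scaled by their totals. Since the same contrast chose the 4 genes, nothing is read from that share. Among named genes ordered by this fold change, Pdpn was number 6, Ednrb 17, Lix1 19 and Nxpe5 22. Directly above and below Pdpn were A4galt (4.203) and Ccr1 (3.72), around Ednrb Thbs2 (3.00) and Nyap2 (2.94), around Lix1 Nyap2 and Cd5l (2.87), and around Nxpe5 Selp (2.82) and Tarm1 (2.80). Neighbours in an order by fold change are of like size by construction, so nothing about the 4 is read from them.

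Per exon length, Nxpe5 was the highest of the 4 in each group, Ednrb came next, then Lix1, and Pdpn was last. As RPKM, which is CPM divided by exon length in kilobases, the WT control means were 19.0 for Nxpe5, 9.02 for Ednrb, 0.610 for Lix1 and 0.276 for Pdpn. With IL-6 the WT means were 112.5, 51.1, 3.78 and 3.52 in the same order. In HET they were 13.9, 6.63, 0.510 and 0.279 in control and 116.4, 71.7, 4.73 and 4.34 with IL-6. Nxpe5 and Ednrb did not overlap in any group. The ratio of Lix1 to Pdpn was 2.12 and 2.31 in the WT controls and 4.127 and 1.197 in the HET controls. With IL-6 it was 0.932 and 1.25 in WT and 0.988 and 1.25 in HET, so their order changed from library to library.

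**Figure D2:**
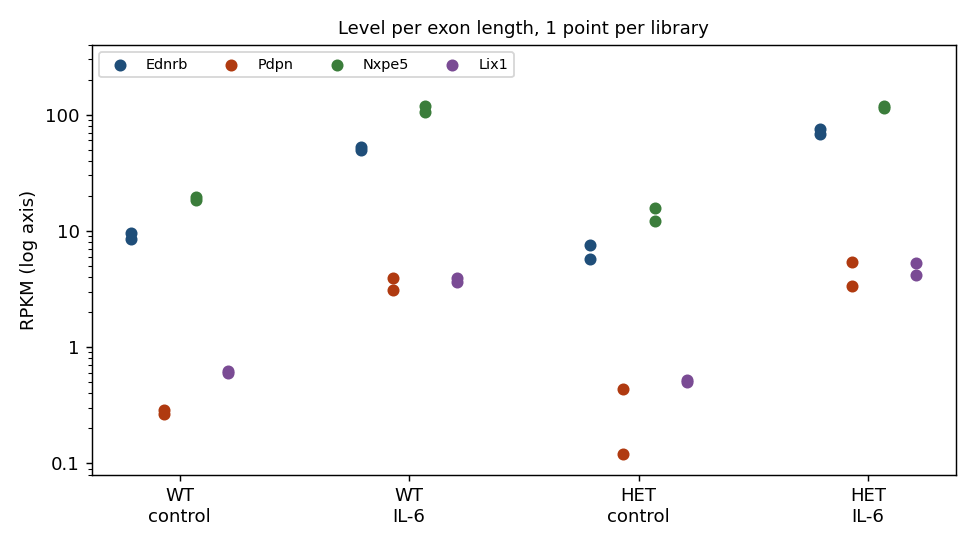
RPKM (log axis) of the 4 genes in the 4 groups, with 1 point for each library. Nxpe5 lies above Ednrb in all groups, and both lie above Lix1 and Pdpn, whose points meet in the IL-6 groups.

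The genotypes were then compared, which the choice of genes did not use. Because libraries cannot be assigned to mice, their spread may be technical in part, and the p-values reflect no more than that spread. Without IL-6, 2 of the 4 genes were called lower in HET, none higher and 2 not, beside 4.85% of all tested genes called. Nxpe5 was lower by a log2 fold change of -0.46 ± 0.11 (95% interval -0.70 to -0.21, edgeR adjusted p = 0.0365). Ednrb was lower by -0.44 ± 0.12 (-0.70 to -0.19, adjusted p = 0.0461). The log2 difference of Lix1 was -0.26 ± 0.22 (-0.74 to 0.23, adjusted p = 0.55), and that of Pdpn was 0.03 ± 0.57 (-1.19 to 1.25, adjusted p = 0.983), an interval that admits changes of more than 2-fold either way. Both calls depended on single libraries. For Ednrb leaving out WT control number 1 (adjusted p = 0.102) or its HET counterpart (0.442, with a log2 difference of -0.27) ended the call, as did leaving out HET IL-6 number 1 (0.0741) or number 2 (0.0749). For Nxpe5 the same held for WT control number 1 (0.0811) and number 2 (0.0671), HET control number 1 (0.406, with a difference of -0.28), and HET IL-6 number 1 and number 2 (0.0682 each).

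With IL-6, Ednrb was the only 1 of the 4 called, and it was higher in HET by a log2 fold change of 0.49 ± 0.11 (95% interval 0.26 to 0.72, edgeR adjusted p = 0.00566). In this comparison 22% of all tested genes were called. Lix1 had a log2 difference of 0.31 ± 0.13 (0.02 to 0.60, adjusted p = 0.112). Nxpe5 had 0.05 ± 0.11 (-0.18 to 0.28, adjusted p = 0.772). Pdpn had 0.27 ± 0.26 (-0.28 to 0.82, adjusted p = 0.484). The Ednrb call was lost without WT IL-6 number 1 (adjusted p = 0.0515) or HET IL-6 number 2 (0.096). Averaged over the treatments, none of the 4 was called, beside 19.9% of tested genes. The averaged log2 difference was 0.02 ± 0.08 for Ednrb, whose lower level in control and higher level with IL-6 cancel, and -0.20 ± 0.08 for Nxpe5 (adjusted p = 0.0793). It was 0.15 ± 0.31 for Pdpn and 0.03 ± 0.13 for Lix1 (adjusted p = 0.774 and 0.903). At an unadjusted p under 0.05 Nxpe5 alone passed, and it was also called by DESeq2 (0.0385), with no filter on low counts (0.0388) and without HET control number 2 (0.0297).

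The IL-6 response itself was larger in HET for Ednrb. The difference of its log2 fold change, HET minus WT, was 0.93 ± 0.16 (95% interval 0.60 to 1.27, edgeR adjusted p = 0.00302), a 1.91-fold larger rise. It passed in all 14 alternative analyses, each with 1 changed setting or 1 library left out, with values of 0.757 to 1.14. In this comparison 8.12% of tested genes were called, and 551 genes had a higher difference than Ednrb. The difference was 0.57 ± 0.26 for Lix1 (0.01 to 1.13, adjusted p = 0.221), 0.51 ± 0.16 for Nxpe5 (0.17 to 0.84, adjusted p = 0.063) and 0.24 ± 0.63 for Pdpn (-1.11 to 1.59, adjusted p = 0.868). None of these 3 was called, and their intervals do not exclude a difference as large as that of Ednrb for Pdpn and Lix1. Nxpe5 was called without WT control number 2 (adjusted p = 0.0465), WT IL-6 number 2 (0.0376) or HET control number 2 (0.0177), with DESeq2 (0.0266) and with no filter on low counts (0.00316). The median difference was 0.54 over the 4 genes and 0.02 over all tested genes. The 4 genes were chosen by a shared trait and vary together, so no shared difference is read from this median, which was not tested.

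**Figure D3:**
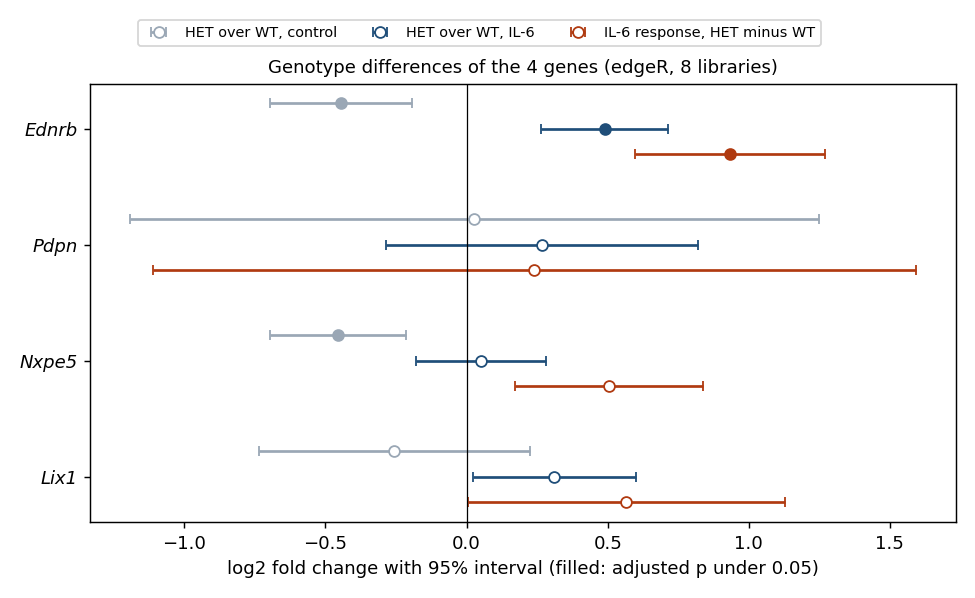
Log2 differences between the genotypes for each of the 4 genes, with points for the estimate and bars for the 95% interval, in control, with IL-6 and for the IL-6 response (HET minus WT); filled points passed an edgeR adjusted p of 0.05. Ednrb is lower in HET without IL-6 and higher with it, while the intervals of Pdpn span 0 in all 3 comparisons.

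Ednrb and Nxpe5 kept a nearly fixed ratio in 6 of the 8 libraries, which does not depend on how libraries are scaled. The ratio of Nxpe5 to Ednrb in RPKM was 2.07 and 2.16 in WT control, 2.12 and 2.28 in WT IL-6 and 2.09 and 2.10 in HET control. It was 1.69 and 1.57 in HET IL-6, below all other libraries. The 2 genes thus moved by like factors with IL-6 in WT, and both stood lower by like factors in the HET controls. This ratio was chosen after its values were seen and was not tested. The ratio of Ednrb to Lix1 varied from 11.6 to 18.2 without order by group.

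**Figure D4:**
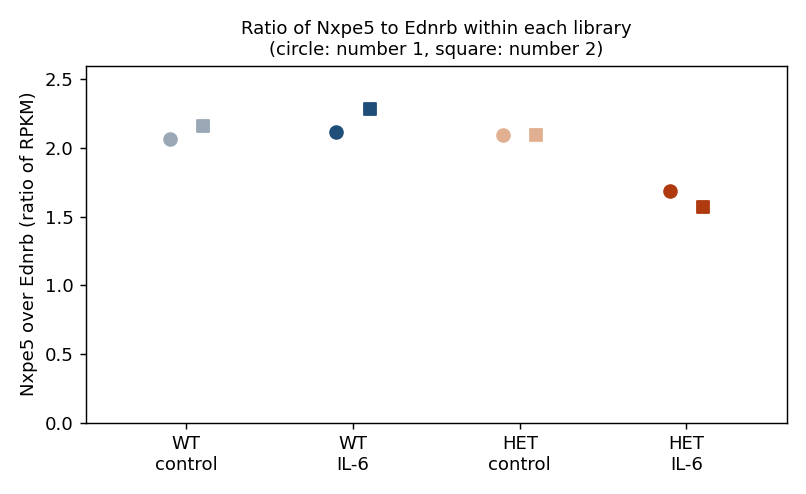
Ratio of Nxpe5 to Ednrb RPKM in each of the 8 libraries, with number 1 as a circle and number 2 as a square. The HET IL-6 libraries are at 1.69 and 1.57, and the other 6 libraries lie between 2.07 and 2.28.

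The spread between libraries of a group differed among the 4 genes. The biological coefficient of variation was 7.67% for Ednrb, 8.00% for Nxpe5, 9.36% for Lix1 and 17.3% for Pdpn, and the trend for genes of their abundance was 6.66%, 6.87%, 8.95% and 11.8%. In HET control number 2 stood above number 1 for all 4 genes, by log2 0.38 for Ednrb, 0.39 for Nxpe5, 0.07 for Lix1 and 1.56 for Pdpn. In HET IL-6 the 2 more abundant genes were slightly higher in number 2 (0.15 and 0.05), and Pdpn and Lix1 were higher in number 1 (-0.68 and -0.35). Number 2 of HET IL-6 is the library with about 2 times the depth of the others.

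In the endothelin system around Ednrb no other gene was called higher with IL-6. Of the other 19 genes listed, 14 were tested, and none rose with IL-6, 4 fell and 10 were not called, with a median log2 fold change of -0.06 beside -0.01 over all tested genes. The share called over all tested genes was 23.6% (1484 higher and 1759 lower), so the count of calls is near the background. At an unadjusted edgeR p under 0.05, 0 rose and 5 fell, and with DESeq2 0 rose and 3 fell. Edn1, the precursor of the ligand endothelin-1, was at 2.20 CPM without and 0.839 CPM with IL-6 in WT, and the HET means were 0.835 and 0.699 CPM. Averaged over genotype Edn1 fell by 0.85 ± 0.25 on the log2 scale (edgeR adjusted p = 0.0243). The fall was called in WT (-1.36, adjusted p = 0.0111) but not in HET (-0.33, adjusted p = 0.606), and the difference of response was not called (0.249). Edn1 was also lower in HET without IL-6 (-1.39, adjusted p = 0.0314). The ligand genes Edn2 and Edn3 stayed at or below 0.0617 CPM in every group, and Ednra, the other endothelin receptor, had 0 counts in all 8 libraries. A count of 0 allows Ednra up to 0.0608 to 0.161 CPM, so Ednrb was the endothelin receptor detected at this depth. Ece1, which cleaves the endothelin precursors, was at 83.7, 77.9, 94.8 and 96.5 CPM (WT control, WT IL-6, HET control, HET IL-6), with a log2 change with IL-6 of -0.04 ± 0.07 (adjusted p = 0.731). Averaged over genotype, the phospholipase C gene Plcb4 fell by 0.59 ± 0.12, the G protein gene Gna12 by 0.36 ± 0.06 and the arrestin gene Arrb1 by 0.24 ± 0.06 (adjusted p = 0.0021, 4.13e-04 and 0.00662). Their values were -0.41, -0.53 and -0.20 in WT, where Gna12 alone was called. In HET they were -0.78, -0.19 and -0.29, with Plcb4 and Arrb1 called. Between the genotypes with IL-6, Gna12 (0.42) and Ece1 (0.31) were higher and Gnaq (-0.23) lower in HET (adjusted p = 0.00348, 0.0326 and 0.0496), beside 22% of all tested genes called. In the IL-6 response 0 of the 14 differed by edgeR or DESeq2 (1, Gna12, at an unadjusted p under 0.05). Over all tested genes 8.12% did by edgeR, so this count is near the background. With libraries scaled by totals Gnai2 was also called lower with IL-6, and Gnaq was not called. Averaged over treatment, 5 of the 14 were called higher in HET and 3 lower by edgeR, and 5 and 2 by DESeq2. Of all tested genes 19.9% were called by edgeR in that comparison (1633 higher and 1096 lower). Whether the list differs from all tested genes in this was not tested.

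Of 15 genes for ligands, partners and glycosylation of podoplanin, 13 were tested. With IL-6, 3 rose, 1 fell and 9 were not called, beside 23.6% called over all tested genes, with a median of -0.02. C1galt1, which builds the core O-glycan that podoplanin carries, rose by log2 0.40 ± 0.08, the actin linker Msn by 0.20 ± 0.06 and the galectin Lgals8 by 0.15 ± 0.05 (edgeR adjusted p = 0.00198, 0.0208 and 0.0495). The tetraspanin Cd9 fell by 0.44 ± 0.09 (adjusted p = 0.00276). These values are averages over genotype, and in them Msn and Lgals8 were not called with libraries scaled by totals. By genotype, Msn was called in WT only (0.38, adjusted p = 0.00467, beside 0.02 in HET, 0.899). Lgals8 and Cd9 were called in HET only (0.25 and -0.67, adjusted p = 0.0291 and 0.0021, beside 0.05 and -0.20 in WT). The difference of response was called for none of them (0.0749, 0.285 and 0.129). Clec1b, which encodes CLEC-2, was at 2.96, 1.81, 1.91 and 1.78 CPM in the same order of groups, with -0.42 ± 0.19 (adjusted p = 0.142). Without IL-6, Ezr (0.51) and St3gal1 (0.41) were higher in HET (adjusted p = 0.00831 and 0.0294), beside 4.85% of all tested genes called. With IL-6, 6 of the 13 were lower in HET, among them Cd44 (-0.37, adjusted p = 0.0108) and Rock2 (-0.35, adjusted p = 0.02), and 5 were with totals, beside 22% of all tested genes called in either direction (1207 lower). Ezr and Cd44 differed in their IL-6 response, by -0.72 ± 0.13 and -0.45 ± 0.13 (HET minus WT, adjusted p = 0.00424 and 0.0442), beside 8.12% of all tested genes called.

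No tested relative of Nxpe5 or Lix1 was called for IL-6 averaged over genotype, for either genotype comparison or for the difference of response, by edgeR or DESeq2. By edgeR 23.6% of all tested genes were called for IL-6 and 8.12% for the difference of response. Between the genotypes the shares were 4.85% in control and 22% with IL-6. Only Nxpe3, Nxpe4 and Lix1l were tested, so the lack of calls is near the background. Of 7 other genes of the NXPE and neurexophilin family, 2 were tested. Nxpe3 had a log2 change of 0.24 ± 0.14 with IL-6 and Nxpe4 of -0.22 ± 0.12 (edgeR adjusted p = 0.256 and 0.22), neither with an unadjusted p under 0.05. In WT alone Nxpe3 rose, by 0.67 ± 0.21 (adjusted p = 0.0361), beside -0.19 ± 0.20 in HET (adjusted p = 0.581), and the difference of the 2 did not pass (adjusted p = 0.0851). In WT control they were at 0.329 and 0.859 RPKM beside 19.0 for Nxpe5. Nxpe2 was at or below 0.084 CPM in every group and Nxph1 and Nxph2 had 0 counts. Lix1l was at 22.5, 23.4, 25.9 and 21.3 CPM in the groups in the same order, with -0.11 ± 0.07 (adjusted p = 0.281). Per exon length Lix1l was at 6.22 RPKM in WT control, above Lix1 at 0.610, and with IL-6 the WT means were 6.46 and 3.78 RPKM.

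Of 14 genes of the IL-6 receptor and STAT3 pathway, all were tested, 4 rose with IL-6, 4 fell and 6 were not called, beside 23.6% called over all tested genes, with a median of 0.09. Il4ra, which encodes the interleukin-4 receptor alpha chain, had 142.4 CPM without and 954.4 CPM with IL-6 in WT, against 187 and 1156 in HET, a rise in both (log2 2.69 ± 0.07, edgeR adjusted p = 4.51e-12). That size is near those of the 4 genes. Bcl3, Stat3 and Jak1 rose by 0.63 ± 0.13, 0.56 ± 0.06 and 0.21 ± 0.05 (adjusted p = 0.00377, 4.76e-06 and 0.00823). Socs1, a feedback inhibitor, fell by 1.31 ± 0.17 (adjusted p = 4.5e-05). Socs3 of the same list was more abundant (196.3 CPM in WT control, beside 2.94 for Socs1) and was not called (0.06 ± 0.06, adjusted p = 0.525). Averaged over genotype, Il6ra, Junb and Tyk2 fell by 0.42, 0.39 and 0.26 (adjusted p = 3.97e-05, 0.0361 and 0.00892). Junb and Tyk2 were called in WT only, at -0.82 and -0.44 (adjusted p = 0.0075 and 0.00382). In HET they had 0.03 and -0.08 (adjusted p = 0.936 and 0.628), and the difference of response was not called (0.0582 and 0.106). Jak1 was also called in WT only (0.26, adjusted p = 0.0229, beside 0.16 in HET, 0.157). With IL-6, 6 of the 14 were higher in HET and 1 lower, and 7 were higher with libraries scaled by totals, beside 22% of all tested genes called in either direction (1814 higher). Il6st, which encodes gp130, differed in its IL-6 response by 0.38 ± 0.11 (adjusted p = 0.045), beside 8.12% of all tested genes called.

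**Figure D5:**
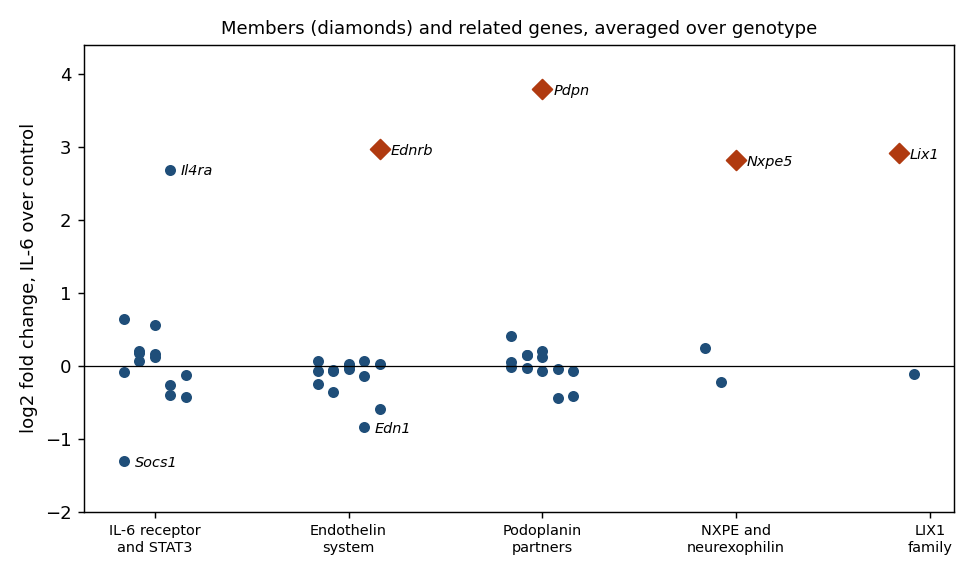
Log2 fold change with IL-6, averaged over genotype, of the 4 genes (diamonds) and of the tested genes of the lists around them (circles). Ednrb, Pdpn, Nxpe5 and Lix1 lie between 2.81 and 3.79, and of the other genes plotted, which hold no cell type markers, only Il4ra lies above 1.

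Other cell types that express Ednrb or Pdpn were checked by their markers. In bulk RNA, fewer cells of a type and less RNA per cell cannot be told apart. Of 5 lymphatic endothelial markers, Ccl21a and Reln had 0 counts in all libraries, and the summed level was 0.883 to 1.12 CPM (WT control), 1.447 to 1.501 (WT IL-6), 1.09 to 1.53 (HET control) and 1.24 to 1.30 (HET IL-6). Within this list Lyve1, a hyaluronan receptor gene, rose with IL-6 as Pdpn did, from 0.394 to 1.05 CPM in WT and 0.385 to 0.900 CPM in HET (log2 1.32 ± 0.28 averaged, edgeR adjusted p = 0.00303). Averaged over genotype Flt4 fell by 0.93 ± 0.32 (adjusted p = 0.0459), on 18 to 43 reads per group. Its fall was called in HET (-1.39, adjusted p = 0.0324) but not in WT (-0.47, 0.549), and the difference of response was not called (0.436). Of 8 fibroblast markers Lum had 0 counts in all, and the sums were 3.19 to 9.002, 5.57 to 11.3, 1.34 to 2.76 and 2.90 to 6.05 CPM in the same order. Of 7 melanocyte and glial markers Sox10, Dct and Tyr had 0 counts in all, and the sums were 1.076 to 1.81, 0.868 to 2.25, 1.09 to 1.66 and 1.86 to 2.07 CPM. The part of such cells in the levels of Ednrb and Pdpn was not tested.

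Among blood endothelial markers, Vwf moved with the genotype difference of Ednrb, while Kdr and Cdh5 did not pass the test of that difference. Of 6 such markers Emcn and Cldn5 had 0 counts in all libraries, and the summed level was 112.6 to 141.8 CPM (WT control), 97.97 to 99.15 (WT IL-6), 87.23 to 97.06 (HET control) and 137.4 to 138.7 (HET IL-6). Most of it was Vwf, at 94.5, 45.6, 63.7 and 83.6 CPM, and Kdr, at 31.4, 50.8, 26.2 and 52.7 CPM. Vwf, like Ednrb, had a larger log2 change with IL-6 in HET than in WT (difference 1.45 ± 0.17, edgeR adjusted p = 2.99e-04), but it fell with IL-6 in WT, where Ednrb rose. The difference of response was 0.31 ± 0.13 for Kdr (adjusted p = 0.173). Cdh5, at 1.10, 2.19, 1.99 and 1.64 CPM, had a difference of the opposite sign (-1.25 ± 0.39, adjusted p = 0.0642). The part of these transcripts in the level of Ednrb was not tested.

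The remaining marker lists were low. In the same order of groups, smooth muscle and pericyte markers summed to 1.91 to 2.16, 2.36 to 7.03, 1.09 to 1.18 and 1.66 to 1.68 CPM, with Des and Rgs5 at 0. Osteoblast and osteocyte markers summed to 4.78 to 6.44, 7.34 to 8.56, 8.37 to 8.97 and 5.23 to 6.09 CPM, with Dmp1 at 0. Epithelial markers summed to 0.0398 to 0.176, 1.075 to 1.715, 0.306 to 0.335 and 0.608 to 0.953 CPM, with Krt18 at 0. The sums for smooth muscle and epithelium were higher with IL-6 in both genotypes. Averaged over genotype, they were led by Acta2 (log2 1.21 ± 0.35, edgeR adjusted p = 0.0244) and Cdh1 (2.73 ± 0.41, adjusted p = 1.99e-04). By genotype both genes were called in WT (adjusted p = 0.0308 and 4.05e-04) but not in HET (0.3 and 0.0617). The difference of response was called for neither (0.707 and 0.123). Cdh1 had 4 to 58 reads per group. Acta2 in WT IL-6 had a mean of 3.76 CPM with a standard deviation of 2.81. The part of these markers in the rise of Pdpn and Lix1 was not tested. Neutrophil markers summed to 0.717 to 0.750, 1.55 to 1.82, 1.84 to 2.06 and 1.033 to 1.078 CPM, and dendritic cell markers to 0.876 to 1.68, 1.02 to 1.32, 1.42 to 1.44 and 1.04 to 1.13 CPM.

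The genes whose pattern was most like each of the 4 were ranked by Pearson r of log2 CPM over the 8 libraries among 10739 genes. For these genes the libraries fall into a control and an IL-6 cluster and share depth and scaling, so r mainly orders genes by how cleanly they separate the treatments, and it is given without a p. Ednrb was most like the chemokine gene Ccl8 (r = 0.9975), the homeobox gene Mixl1 (0.9975), Eps8 (0.9962), the inhibitory Fc receptor gene Fcgr2b (0.9949) and Nxpe5 (0.9944). Pdpn was most like Ly6a (0.9955), the leukotriene B4 receptor gene Ltb4r1 (0.9927), Prokr1 (0.9895), Enpp6 (0.9874) and A4galt (0.9858). Nxpe5 was most like Fcrls (0.9968), the osteopontin gene Spp1 (0.9968), Igf2bp2 (0.9959), Sntb2 (0.9953) and Tanc2 (0.9951). Lix1 was most like Tanc2 (0.998), Spp1 (0.9964), Ccl8 (0.9958), Prokr1 (0.9955) and the metalloproteinase inhibitor gene Timp1 (0.9942). Between 103 and 157 genes had an r above 0.95 with each of the 4, and the 4 had r of 0.977 to 0.9944 with each other. By Spearman rho the 5 nearest genes shared 1 with those by Pearson r for Pdpn (Ly6a) and for Lix1 (Ccl8) and 0 for Ednrb and Nxpe5, so these neighbours depend on the measure.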

How the data were processed

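Gene expression was measured by RNA sequencing of 8 libraries, 2 in each of 4 groups, prepared from polyadenylated RNA by a stranded kit, per the labels' protocols. The values are raw counts per gene that the authors deposited as 1 table of 55376 genes. The tools in the submitters' processing notes are STAR 2.7.9a, featureCounts 1.6.2, fastp 0.12.4 and SAMtools 1.9, with genome build mm10. Which annotation and strand setting were counted is not given in the sources used here. Gene spans matched GENCODE M21 for 97.9% of genes.

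In R 4.3.3, edgeR 4.0.16 was fitted to all 8 libraries with 1 mean per group (filterByExpr with a minimum count of 10, 13721 genes, TMM scaling, robust quasi-likelihood F test, 2-sided, 4 residual degrees of freedom), with Benjamini-Hochberg adjustment over all tested genes. A gene was called at an adjusted p under 0.05. The scripts were tested on simulated counts. CPM and RPKM used the TMM-scaled totals and the union of exons. Libraries were grouped by their titles.

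The 4 genes and the gene lists were chosen with earlier results of these data known. Named genes are the 4, the genes of the lists, the 5 most alike by Pearson r (mean of at least 1 CPM, prior count 2), and the neighbours in rank; predicted genes were skipped. Alternatives were scaling by totals, DESeq2 1.42.0, no filter on low counts, a replicate block, only the libraries compared, no robust option, and leaving out each library. 1 gene of the IL-6 receptor and STAT3 list is not reported here, and the list's counts leave it out. DNA methylation and protein were not analysed here.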

Additional observations from a re-analysis of the deposited data

Results flagged for a closer look

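The IL-6 response differed between the genotypes, by an interaction test (edgeR quasi-likelihood, adjusted p under 0.05), for Ednrb and for 8 other listed genes. Il6st, Ezr and Cd44 are from the pathway lists, and Mertk, Vwf, Csf1r, Runx2 and S100a9 from the cell type marker lists. For Ednrb the difference, HET minus WT, was 0.93 ± 0.16 (log2, SE, adjusted p = 0.00302), from rises of 2.50 in WT and 3.43 in HET. Il6st (0.38 ± 0.11, adjusted p = 0.045) had changes of -0.28 in WT and 0.10 in HET, and Mertk, a macrophage receptor for dying cells (0.67 ± 0.13, adjusted p = 0.00767), of -0.22 and 0.45. Vwf (1.45 ± 0.17, adjusted p = 2.99e-04) had changes of -1.05 and 0.39.

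For 5 genes the difference was negative. It was -0.72 ± 0.13 for Ezr (adjusted p = 0.00424), with changes of 0.34 in WT and -0.38 in HET, and -0.45 ± 0.13 for Cd44 (0.0442), with 0.15 and -0.30. It was -0.43 ± 0.11 for Csf1r, the M-CSF receptor (0.0287), with 0.07 and -0.36. It was -1.16 ± 0.24 for Runx2 (0.0105), with 0.52 and -0.64, and -2.50 ± 0.53 for S100a9 (0.0117), with 1.45 and -1.05. Of all tested genes, 8.12% differed in this way. By list, 0 of 14 tested genes were called for the endothelin system, 2 of 13 for podoplanin and 1 of 14 for the IL-6 receptor and STAT3 pathway. Of 8 macrophage markers 1 was called higher and 1 lower. Calls were 1 of 3 blood endothelial, 1 of 1 osteoblast and 1 of 2 neutrophil markers tested, and none in the other lists. Nothing particular to the lists is read from these counts.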

How the results depend on the processing

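The larger IL-6 response of Ednrb in HET held under every alternative run. The higher level of the 4 genes with IL-6 did too, but it chose them in these same libraries, so nothing is read from that. The genotype difference of Ednrb in control was -0.45 (adjusted p = 0.0687) with the number as a replicate block, -0.44 without the robust option (0.0543) and -0.44 with only the libraries compared (0.0642), so the call was lost in each, and leaving out single libraries gave -0.65 to -0.27. That of Nxpe5 in control was -0.47 with the replicate block (0.0534) and -0.66 to -0.28 without single libraries. The difference of the Nxpe5 response was 0.50 with DESeq2 and 0.52 with no filter, called in both, and 0.33 to 0.71 without single libraries. Ednrb with IL-6 ranged from 0.39 to 0.55. Without single libraries some values changed sign: Pdpn ranged from -1.18 to 0.66 in control, -0.10 to 0.59 with IL-6, -0.46 to 0.46 averaged and -0.39 to 1.45 for the difference of response. Nxpe5 with IL-6 ranged from -0.039 to 0.142, and averaged over treatment Ednrb ranged from -0.079 to 0.113 and Lix1 from -0.063 to 0.111. The cause of these changes was not tested, apart from the fewer libraries.

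Genes called between the genotypes in control numbered 666, but 1078 with no filter, 339 with the replicate block, 437 with only the libraries compared and 33 to 1304 without single libraries. Those called with IL-6 numbered 3021, and 879 to 4000 without single libraries. Averaged over treatment they numbered 2729, and 940 to 4500 without single libraries. Those whose response differed numbered 1114, but 732 and 506 with the number and with genotype by number as the replicate block, and 304 to 2123 without single libraries. Same-numbered libraries deviated together weakly at most (r = -0.11 in WT and 0.15 in HET between treatments, -0.06 in control and 0.02 in IL-6 between genotypes, over 13721 genes), and the labels do not state that a number marks a mouse. With the block by genotype and number the difference of the Ednrb response was 0.94 (adjusted p = 0.00586). Where an arm keeps 1 library, it is assumed to vary like the other groups. The depth limits Pdpn most, at 5 to 19 reads in the control libraries.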
